A study of Mus musculus with 4 samples.

Results

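F-midi ON ganglion cells are 1 of 45 types of retinal ganglion cell (RGC), the output neurons of the eye, in an imaging map of the mouse retina. Members were the cells whose deposited type call was 38_FmidiON, and they numbered 995 of 131379 RGCs. The retinas came from wild-type C57BL/6 mice kept without any intervention, cut en face into 20 µm sections and imaged with Xenium, which decodes single transcripts as puncta in the tissue, on a panel of 300 genes. All samples form 1 group with no treatment, and neither age nor sex is given. The table covered 5 retinas, 41 sections and 8 slides, and 34 sections held at least 1 F-midi ON cell. No label ties a retina to an animal, so every p-value below measures only the spread between these 5 retinas, which may be technical.

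The F cells are RGCs that express the forkhead transcription factor gene Foxp2. They form a small-field pair (F-mini) and a larger-field pair (F-midi), each with an ON member, which responds to light increments and places its dendrites in the inner part of the inner plexiform layer, and an OFF member, which responds to decrements. Members of an RGC type commonly space themselves apart, so that each type covers the retina with its own lattice.

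Retinas 1 to 5 held 272, 297, 74, 217 and 135 F-midi ON cells, or 0.775%, 0.724%, 0.564%, 0.782% and 0.939% of their RGCs. The mean share was 0.757% ± 0.135 (SD, n = 5 retinas), which placed the type 39th of 45 from the most common. Retina 3 was lowest and retina 5 highest. Among the 27 sections with at least 1000 RGCs the share ran from 0.371% to 1.16%, with a median of 0.747%. Median puncta per F-midi ON cell were 334.5, 298, 325.5, 314 and 292, a mean of 312.8 ± 17.9 against 301.2 ± 15.6 for all other RGCs. Every RGC in the table held at least 100 puncta, whole-retina totals ran from 4048481 to 12879454 puncta, and no cell was shared between retinas.

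Foxp2, the gene that marks the F cells, was present in F-midi ON cells of every retina. Its mean was 1.39, 1.61, 1.62, 1.71 and 1.37 puncta per cell in retinas 1 to 5, or 1.54 ± 0.15 (SD, n = 5). The 5 retinas lay close together, and the type ranked 3rd of 45, after the 2 F-mini types. With each cell thinned to 100 puncta, 38.7% ± 4.5 of F-midi ON cells held at least 1 Foxp2 punctum, against 51.3% ± 2.5 of F-mini ON cells and 1.15% ± 0.30 of the alpha type 43_AlphaONS, whose median depth was 415 puncta against 312. Thinned shares were 31.3% in F-midi OFF and 31.2% in 32_F_Novel cells. Outside the F types, 11_Novel (10.3%) and 15_Novel (10.2%) ranked 6th and 7th, whereas 43_AlphaONS ranked 44th of 45. Without thinning the shares in F-midi ON, F-mini ON and 43_AlphaONS cells were 76.3% ± 3.9, 79.8% ± 2.6 and 3.37% ± 0.96. At this depth 240 of 995 F-midi ON cells (24.1%) showed no Foxp2 punctum and 33 showed 5 or more, so single cells could not be sorted by the gene.

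Set beside the mean of the other 44 types, F-midi ON cells were higher in Foxp2, Lxn, Gal, Meis2, Ebf3, Glra1 and Isl2. They were lower in Slc24a2, Kcnh1, Fgf1 and Irx6. Of these low genes, Kcnh1, Fgf1 and Irx6 stood near the levels of F-mini ON cells. In puncta per cell they were at 0.118 against 0.103, 1.65 against 1.86 and 0.107 against 0.107. Kcnh1 and Irx6 ranked 40th and 41st of the 45 types. Other values here are differences of log2(CPM + 10), where CPM is a gene's puncta per 1000000 puncta of the type in a retina. This scale understates differences of low genes. Gene ranks among the 45 types, here and below, use the mean on this scale, not puncta per cell. The sources used here do not give how the types were called, which may rest on these genes, so the gene differences between types are a description and carry no test. Past a difference of 1 in all 5 retinas, 16 of 300 genes were higher (5.33%) and 7 lower (2.33%). This balance depends on the reference, since against all other RGCs pooled 8 genes were higher and 41 lower, and 15 of the 23 genes were shared. The median over all 300 genes was -0.16. Scaling by TMM moved that median by 0.073, and the median against F-mini ON cells by 0.11.

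The transcription factor genes, 24 of the 300, supplied 5 of the 16 higher genes. Foxp2, which defines the F cells, is counted among these 5. Of the 24 on the panel, Foxp2 (3.78 ± 0.23, SD, n = 5), Ebf3 (2.23 ± 0.15), Isl2 (2.02 ± 0.21), Tfap2d (1.32 ± 0.20) and Pou4f3 (1.26 ± 0.14) were past 1, and Irx6 (-1.76 ± 0.51) was past it on the low side. The median of these 24 genes was -0.05. Pou4f3 and its relative Pou4f2, which encode POU-domain factors of RGC differentiation, averaged 0.584 and 1.24 puncta per cell. Pou4f2 differed by 1.07 ± 0.20, with retina 5 at 0.73 and the others above 1. After thinning, Pou4f3 was seen in 16.8% ± 5.1 of F-midi ON cells, with retina 2 highest at 25.6% and the other retinas between 12.6% and 16.2%.

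Meis2, which encodes a homeodomain transcription factor, was not on the transcription factor list but set the type apart by level. F-midi ON cells held 14.0, 11.6, 11.3, 13.1 and 11.8 Meis2 puncta per cell in retinas 1 to 5, or 12.4 ± 1.2 (SD, n = 5). This was the highest level of the 45 types, with 32_F_Novel at 8.49 and the other F types between 1.19 and 2.31. The difference from the mean of the other types was 2.35 ± 0.16, and retina values ran from 2.14 to 2.54. Pax6, a paired-box gene shared with amacrine cells, was also at its highest among the 45 types, at 13.2 ± 0.58 puncta per cell against 6.28 in F-mini ON cells, although its difference of 0.77 ± 0.07 was below 1.

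Lxn encodes latexin, an inhibitor of carboxypeptidases. It was counted at 3.89, 2.56, 2.50, 2.53 and 2.63 puncta per F-midi ON cell, a mean of 2.82 ± 0.60, and ranked 2nd of the 45 types. Retina 1 stood above the other retinas, which lay between 2.50 and 2.63, and the difference from the other types was 3.67 ± 0.13. No other F type exceeded 0.675 puncta per cell. Gal, the gene of the neuropeptide galanin, averaged 0.603, 0.374, 0.216, 0.235 and 0.133 puncta per cell. It differed by 3.03 ± 0.56 and was the only 1 of 7 neuropeptide and hormone genes past 1, in a list whose median was -0.62. The level in retina 1 was over 4 times that in retina 5, so the size of this difference was less even than for Lxn.

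Receptors for inhibitory and excitatory transmitters came next. Glra1, which encodes the alpha1 subunit of the glycine receptor, reached 2.97, 2.45, 2.91, 3.08 and 2.37 puncta per cell, the highest mean of the 45 types at 2.76 ± 0.32. Its difference was 2.08 ± 0.34 and lay between 1.70 and 2.51 in the 5 retinas. Over the 15 GABA and glycine receptor genes on the panel the list median was -0.04. Of the 9 ionotropic glutamate receptor genes only Grin3a, which encodes an NMDA receptor subunit, was past 1 in every retina (1.85 ± 0.15), in a list whose median was 0.31. The AMPA receptor gene Gria1 averaged 1.02 ± 0.08.

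Of 58 channel genes, which include channel partners, 1 was past 1 on the high side and 1 on the low side. Over all 300 genes the shares were 5.33% and 2.33%. The channel genes were Kcnb2 (1.12 ± 0.05) and Kcnh1 (-1.78 ± 0.52). Both encode voltage-gated potassium channels, and the list median was 0.02. Other higher genes were Serpine2 (1.82 ± 0.11), a serine protease inhibitor gene, Cd83 (1.39 ± 0.06), the protocadherin gene Pcdh11x (1.32 ± 0.16) and the calcium buffer gene Pvalb (1.31 ± 0.26).

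Slc24a2, a potassium-dependent sodium/calcium exchanger gene, was lowest relative to the other types. It was counted at 0.647, 0.902, 1.14, 0.585 and 0.733 puncta per cell and differed by -1.98 ± 0.38, which ranked F-midi ON cells 44th of 45. Fgf1, a fibroblast growth factor gene, was at its lowest of the 45 types, with 1.65 ± 0.36 puncta per cell and a difference of -1.78 ± 0.34. Stk32a (-1.74 ± 0.28), the metabotropic glutamate receptor gene Grm8 (-1.38 ± 0.35) and the protocadherin gene Pcdh8 (-1.34 ± 0.30) were also past -1 in every retina. Opn4, the melanopsin gene, was at 0.0157 puncta per cell and differed by -1.63 ± 0.81, with retinas 2 and 5 above -1. Atp2b4 (-1.54 ± 0.63), Irx3 (-1.46 ± 0.80), Ramp3 (-1.50 ± 0.58) and Neurod2 (-1.45 ± 0.98) were likewise lower in all 5 retinas without passing 1 in each. A730046J19Rik and Cspg4 rest on 9 and 4 puncta in the type and are listed at 0 in 2 retinas each.

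**Figure D1:**
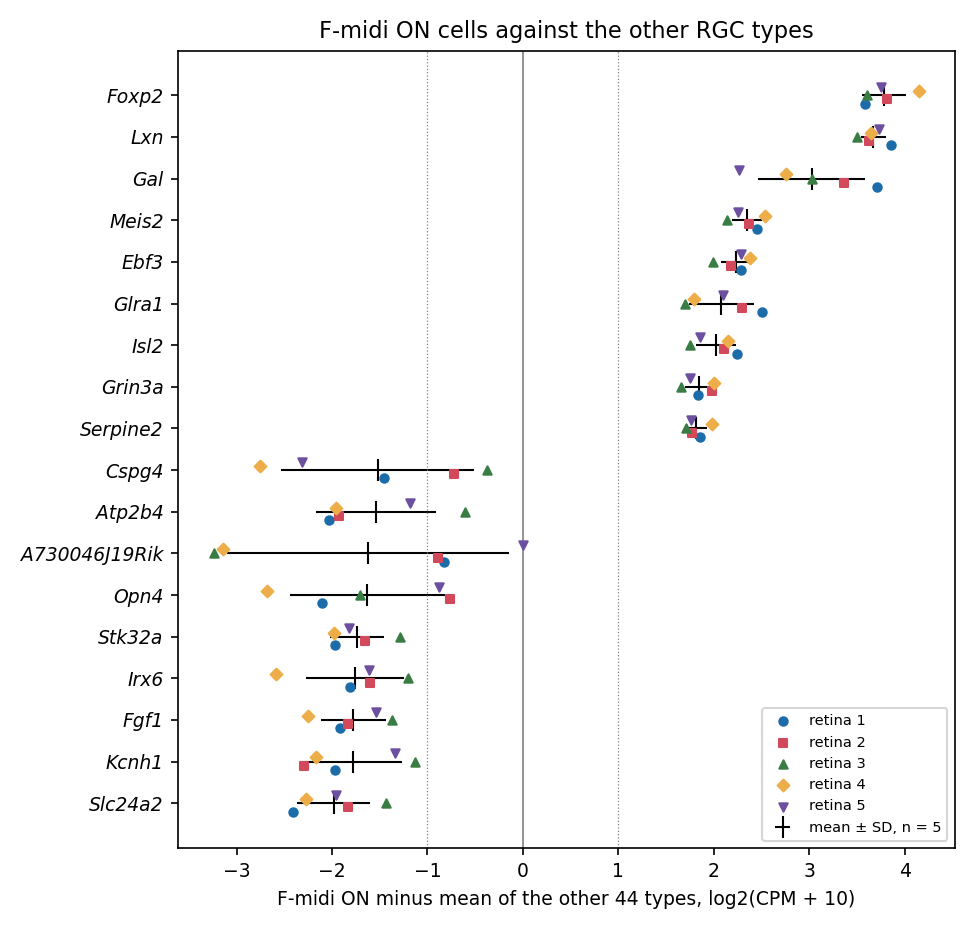
Difference in log2(CPM + 10) between F-midi ON cells and the mean of the other 44 types (x axis) for the 9 named genes of largest difference in each direction (y axis), with 1 symbol per retina and the mean ± SD over 5 retinas in black. The higher genes from Foxp2 to Serpine2 sit past the dotted line at 1 in every retina, while several lower genes spread widely, such as A730046J19Rik.

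Markers of other cell classes gave the following levels, and their part in the differences above was not tested. No marker of these lists was at 0 puncta over the whole type. The 14 amacrine genes summed to 57.6 ± 2.7 per 1000 puncta, with retinas between 53.4 and 60.6, against 36.6 ± 0.8 in F-mini ON cells and a median of 40.7 over the other types. Without Pax6 the other 13 summed to 15.6 ± 1.5 against 14.2 ± 1.0 and 15.04, so the excess lay in Pax6, as a split chosen after the values were seen. The 3 rod genes summed to 3.22 ± 1.3 (median of the other types 3.85), the 5 Müller glia genes to 4.48 ± 0.94 (4.90), the 12 bipolar genes to 4.46 ± 0.29 (5.44) and the 2 microglia genes to 0.081 ± 0.051 (0.14). The 4 genes of intrinsically photosensitive RGCs summed to 1.83 ± 0.43 (2.78) and the 5 alpha RGC genes to 19.5 ± 1.1 (19.9). Above their medians were the 5 genes of W3 RGCs, at 9.60 ± 1.0 (5.74), and the 3 of T-RGCs, at 6.68 ± 0.97 (5.57). So were the 2 genes of ON-OFF direction-selective RGCs, at 2.87 ± 0.27 (2.04), and the endothelial gene Cdh5, at 0.29 ± 0.16 (0.18). Horizontal cell, cone, pericyte and N-RGC genes lay under their medians. Among RGC genes, Rbpms, which marks all RGCs, was seen in 97.3% ± 1.1 of F-midi ON cells.

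F-mini ON cells are the smaller-field counterpart with the same response sign, and the comparison with them separated the ON members of the pairs. F-midi ON cells carried more Gal, Lxn, Meis2, Pcdh11x, Serpine2 and Glra1, and less Tafa3, Ppp1r17, Slc24a2, Spon1 and Pcdh8. On the same scale, 23 of 300 genes were higher in F-midi ON cells past 1 in all 5 retinas (7.67%) and 18 lower (6%), with a median of -0.12 over all genes. These differences have the same F-midi ON libraries as those above and are likewise a description.

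Gal was nearly absent from F-mini ON cells, at 0.0122 puncta per cell, and the difference was 4.16 ± 0.69. Meis2 stood at 1.44, 1.25, 1.37, 1.36 and 1.51 puncta per F-mini ON cell in retinas 1 to 5, far under the F-midi ON range of 11.3 to 14.0. The differences were 2.98 ± 0.17 for Meis2, 3.21 ± 0.17 for Lxn, 2.57 ± 0.30 for Pcdh11x, 2.42 ± 0.17 for Serpine2 and 2.17 ± 0.42 for Glra1. Htr1b, which encodes a serotonin receptor, differed by 2.03 ± 0.16, and the GABA-A subunit gene Gabrg1 by 1.84 ± 0.15.

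Among the 24 transcription factor genes, Tfap2d (2.12 ± 0.20), Isl1 (1.95 ± 0.23), Ebf3 (1.94 ± 0.13) and Pou4f3 (1.77 ± 0.31) were past 1 and Onecut2 (-1.21 ± 0.11) past -1, with a list median of 0.16. Isl1 and Isl2 encode LIM-homeodomain factors. Isl1 was past 1 in every retina, whereas Isl2 differed by 0.19 ± 0.16. Foxp2 was lower in F-midi ON cells in all 5 retinas, by -0.67 ± 0.17, and Foxp1, its close relative, averaged 1.03 ± 0.32 higher. Foxp1 was at 0.677 puncta per F-midi ON cell and 0.294 per F-mini ON cell, against 1.64 in F-midi OFF and 2.82 in F-mini OFF cells. Both OFF types thus lay above both ON types.

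Of the 58 channel genes, 5 were past 1 in F-midi ON cells and 2 past -1, with a median of -0.06. Over all 300 genes the shares were 7.67% and 6%. Kcnb2 was counted at 2.75, 2.24, 2.73, 2.55 and 2.51 puncta per F-midi ON cell against 0.530 to 0.647 per F-mini ON cell, a difference of 1.98 ± 0.08. Cacna1e (1.57 ± 0.39), Kcnd3 (1.30 ± 0.13), Kcnip1 (1.21 ± 0.12) and Kcna1 (1.19 ± 0.05) were also higher. Kcnd2 (-2.09 ± 0.18) and Cacna2d2 (-1.58 ± 0.15) were lower. Kcnd2 and Kcnd3 encode A-type potassium channels, so these relatives differed in opposite directions between the types.

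Of the genes lower than in F-mini ON cells, Spon1, which encodes the extracellular protein F-spondin, was counted at 1.38, 0.997, 1.34, 1.71 and 1.56 puncta per F-midi ON cell and at 5.84 to 6.88 per F-mini ON cell. The difference was -2.36 ± 0.29. Tafa3, a secreted-protein gene, was at 0.0647 against 0.623 puncta per cell (-3.38 ± 0.32). Ppp1r17 (-2.42 ± 0.18), Slc24a2 (-2.42 ± 0.39), Pcdh8 (-2.28 ± 0.37), Cbln4 (-2.10 ± 0.41), Lpl (-2.07 ± 0.25), Gpr37 (-1.91 ± 0.24), Grm5 (-1.89 ± 0.33) and Anxa2 (-1.86 ± 0.38) followed. Ramp3 averaged -1.86 ± 0.75, with retina 5 at -0.57 and the other retinas between -1.83 and -2.35. Ppp1r17 and Cpne4 (-1.51 ± 0.21) belong to the list of 7 genes of Foxp2 RGCs, of which Pou4f3 alone was past 1.

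**Figure D2:**
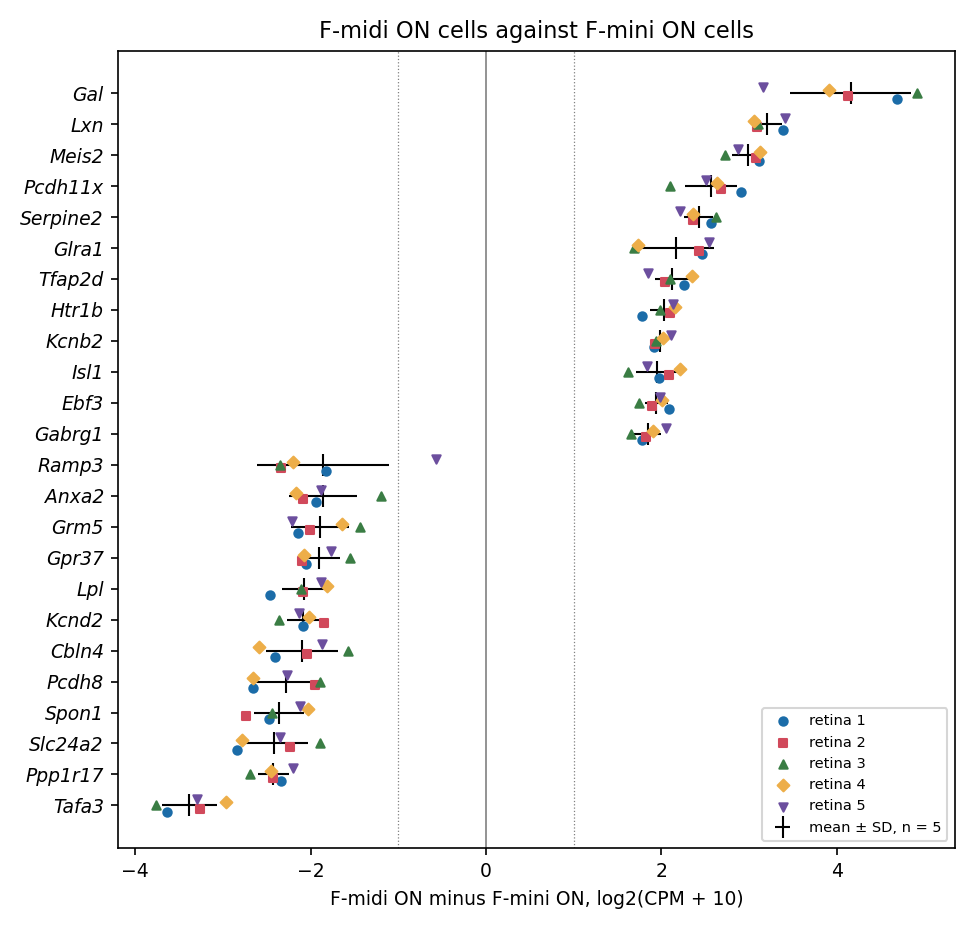
Difference in log2(CPM + 10) between F-midi ON and F-mini ON cells (x axis) for the named genes (y axis), with 1 symbol per retina and the mean ± SD over 5 retinas in black. Gal has the widest spread among the higher genes, and of the lower genes Ramp3 in retina 5 alone lies short of the dotted line at -1.

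Position and spacing are no part of the rule that chose the cells and were tested, although whether position entered the type calls is not known. Within 50 file units of an F-midi ON cell, another F-midi ON cell was rarely found. In retinas 1 to 5, 6 of 7436, 8 of 7550, 6 of 2034, 10 of 5802 and 12 of 3489 RGC neighbours within that distance were of the same type, each pair being counted from both of its cells. These were shares of 0.0807%, 0.106%, 0.295%, 0.172% and 0.344%. At 100 to 200 units the shares were 0.920%, 0.741%, 0.620%, 0.838% and 0.959%, so the near share was under the far share in every retina, with retina 1 most depleted and retina 3 least.

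The log2 ratio of near to far share averaged -2.14 ± 0.38 (SE, n = 5; SD 0.98; limma, adjusted p = 0.00286 over 45 types), and the exact sign-flip permutation test over retinas gave its smallest possible two-sided p of 0.062. Most types were spaced in this way, since 38 of 45 passed (84.4%) and 37 of them were lower near the cell (82.2%). The mean ratio for F-midi ON cells was the lowest of the 45 types, with 25_Novel next at -1.72 (SD 0.20). This rank did not hold in every retina. In retina 4, 41_AlphaONT was lower (-3.19 against -2.21). In retinas 3 and 5 several types were lower, among them 25_Novel (-1.48 against -0.97 and -1.85 against -1.42) and 39_Novel (-1.50 and -1.96). The lowest there were 44_Novel in retina 3 (-1.84) and 19_Novel in retina 5 (-2.27). F-midi ON cells were the lowest of the 45 types in retinas 1 and 2 only. The difference between F-midi ON and 25_Novel was not tested. The size depends on the distance taken as near, since it was -0.82 within 100 units, where the adjusted limma p was 0.000395. Without any 1 retina it stayed between -2.44 and -1.83.

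Among F types, the F-midi ON ratio was under that of F-mini ON cells by -1.50 ± 0.95 (SD, n = 5 retinas), of F-mini OFF by -1.35 ± 0.94, of F-midi OFF by -1.58 ± 0.74 and of 32_F_Novel by -1.96 ± 0.85. Each difference was negative in 5 of 5 retinas, and each had the smallest p that the exact sign-flip permutation allows, 0.062, also after adjustment over the 4 comparisons. The comparisons therefore do not pass 0.05 with 5 retinas.

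The share of F-midi ON cells among neighbours climbed with distance. It was 0.112% ± 0.119 from 0 to 25 units, 0.232% ± 0.154 from 25 to 50, 0.437% ± 0.071 from 50 to 75 and 0.698% ± 0.268 from 75 to 100. From 100 to 125 units it reached 0.889% ± 0.183, and farther out it varied between 0.747% and 0.874%. The deposited distance from each F-midi ON cell to its nearest cell of the same type had medians of 120, 151, 141, 120 and 113 units, or 129 ± 16 (SD, n = 5). This was the 6th longest of the 45 types, beside a 7th lowest share, against 46.7 ± 2.9 for the far more common F-mini ON cells.

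For the other 44 types as neighbours of F-midi ON cells, no gap of this kind passed the test. Of these, 0 passed in limma (0%), with a smallest adjusted p of 0.566. Only 25_Novel was under an unadjusted p of 0.05, with a higher share near the cell than farther out (log2 ratio 0.12 ± 0.05, SE, higher in 4 of 5 retinas). F-mini ON cells had a log2 ratio of 0.03 ± 0.05 (SE), F-mini OFF of 0.03 ± 0.05, F-midi OFF of 0.07 ± 0.07 and 32_F_Novel of -0.13 ± 0.06. Around an F-midi ON cell lay 26.6 ± 0.91 RGCs within 50 units, and around any RGC 25.4 ± 1.4, with 3 of 5 retinas higher (exact sign-flip permutation, p = 0.25).

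**Figure D3:**
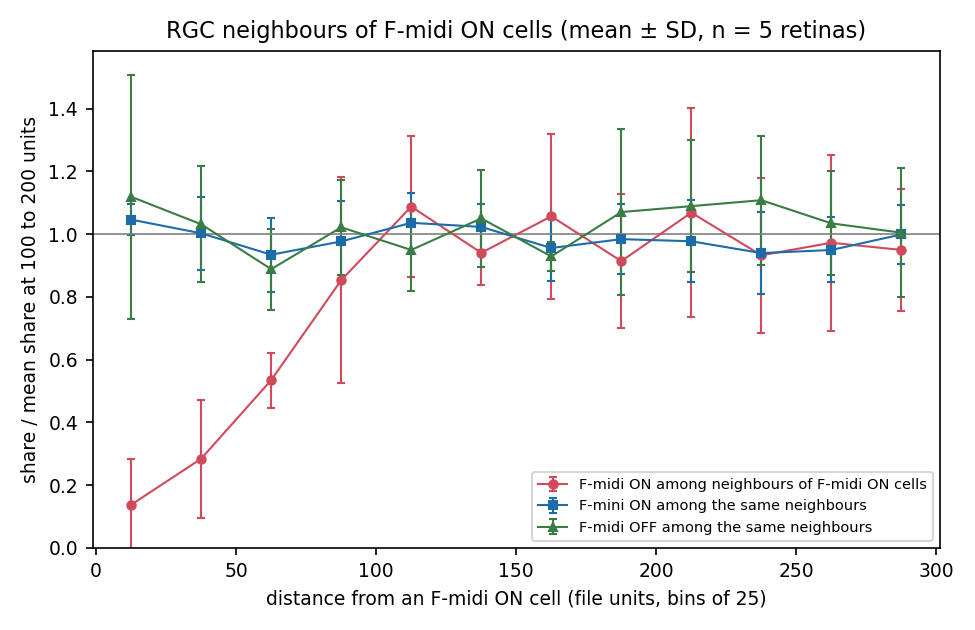
Share of F-midi ON, F-mini ON and F-midi OFF cells among the RGC neighbours of F-midi ON cells, each divided by its own mean share at 100 to 200 units (y axis), by distance in file units (x axis, bins of 25). Points are means and bars SD over 5 retinas, and the F-midi ON curve alone drops toward 0 near the cell, from 0.889% of neighbours at 100 to 125 units to 0.112% below 25.

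F-midi ON cells took a larger share of RGCs in the periphery than in the centre, split at a scaled radius of 0.5. The central shares in retinas 1 to 5 were 0.551%, 0.672%, 0.561%, 0.556% and 0.771%, and the peripheral shares 0.845%, 0.752%, 0.567%, 0.897% and 1.15%. The periphery was higher in 5 of 5 retinas, by log2 ratios of 0.62, 0.16, 0.02, 0.69 and 0.57, so retina 3 hardly differed. In edgeR on cell counts the log2 ratio was 0.42 ± 0.12 (SE, adjusted p = 0.0108 over 45 types), and the exact sign-flip permutation p was 0.062. Many types differed in share with radius, since 42.2% of the 45 passed and 26.7% were higher in the periphery. The adjusted p in edgeR was 0.0505 without retina 1, 0.0866 without retina 4 and 0.0788 without the retina block. With the section as block, which compares cells within a section and so within a slide, the log2 ratio was 0.42. Its p is not given, since sections of a retina are not separate retinas.

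For the other F types the same edgeR fit gave log2 ratios of 0.13 ± 0.06 for F-mini ON (adjusted p = 0.0785), -0.04 ± 0.06 for F-mini OFF (0.624), -0.07 ± 0.08 for F-midi OFF (0.489) and 0.15 ± 0.07 for 32_F_Novel (0.0785). The differences between F types in this ratio were not tested. In 5 bins of radius the mean F-midi ON share was 0.473% ± 0.150, 0.598% ± 0.108, 0.760% ± 0.162, 0.907% ± 0.303 and 0.743% ± 0.137, from the centre outward. The outermost bin was below the 4th in retinas 1, 2, 4 and 5 and above it in retina 3. It held only 3 F-midi ON cells in retina 5 and 9 in retina 3, and the innermost bin held only 39 over all retinas.

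**Figure D4:**
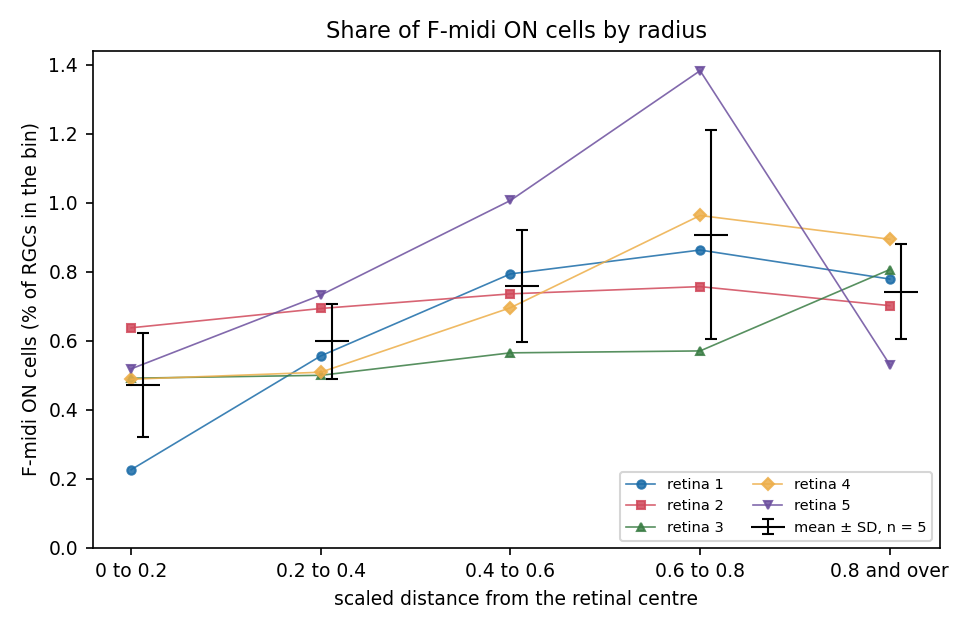
F-midi ON cells as a percentage of the RGCs in each bin of scaled radius (y axis) against the bin (x axis), with 1 line per retina and the mean ± SD over 5 retinas in black. The mean climbs from 0.473% in the innermost bin to 0.907% in the 4th. Retina 5 has the steepest course, and its outermost point rests on 3 F-midi ON cells.

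Along the other position axes no difference passed. Above against below 0 on scaled Y the edgeR log2 ratio was 0.25 ± 0.14 (SE, adjusted p = 0.260), with 3 of 5 retinas higher and 0 of 45 types called (0%). On scaled X it was 0.09 ± 0.12 (adjusted p = 0.625), with 4 of 5 higher and 28.9% of types called. The labels give no anatomical direction for the axes. Opn1sw, the short-wavelength cone opsin gene, was lower above Y = 0 in retinas 1, 2 and 4 (ratios of 0.379, 0.641 and 0.709). It was higher in retinas 3 and 5 (1.2 and 2.71), at levels of only 0.0119 to 0.0688 puncta per cell. Opn1mw, another cone opsin gene, divided the retinas differently. It was lower above Y = 0 in retina 1 (0.72) and higher in retinas 2 to 5 (1.37, 1.2, 1.21 and 1.56). One direction of Y may therefore not be the same place in each retina, but these ratios do not settle this.

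Cell size and shape came from the segmentation in the table, and volume has no stated unit. Median F-midi ON volumes were 607, 587, 712, 522 and 550 in retinas 1 to 5, or 596 ± 73 (SD, n = 5), the 27th of 45 types from the largest. The log2 ratio to F-mini ON cells was 0.13 ± 0.12 (SD), higher in 4 of 5 retinas (exact sign-flip permutation, p = 0.125, adjusted over 35 comparisons 0.398), and it was 0.03 among cells with at least 200 puncta. Against F-midi OFF cells it was 0.17 ± 0.17, higher in 5 of 5 (p = 0.062 in the same exact test, adjusted 0.273). F-midi ON cells were less elongated than F-mini ON cells in all 5 retinas, at 1.19 ± 0.01 against 1.21 ± 0.01 (exact p = 0.062, adjusted 0.273), and ranked 44th of the 45 types. None of these shape comparisons can reach 0.05 with 5 retinas. Median puncta per cell were 1.13-fold those of F-mini ON cells, and higher in 5 of 5 retinas.

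Within the type, few genes differed between centre and periphery. Of 220 genes tested by edgeR on summed puncta, 3 were higher in the periphery and 1 lower at an adjusted p under 0.05 (1.82%), against 1.91% over all 11621 pairs of type and gene. An unadjusted p under 0.05 was reached by 27 genes. The median log2 change over all 220 was -0.03. None of the 7 Foxp2 RGC genes, the 17 tested transcription factor genes or the 57 tested channel genes passed.

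Spon1, the gene that was lower than in F-mini ON cells, was among the 3. In CPM it stood at 2170, 2615, 4374, 3744 and 3719 in the centre of retinas 1 to 5 and at 4446, 3564, 3766, 6157 and 6328 in the periphery. It was higher in the periphery in 4 of 5 retinas, retina 3 being the exception, and the log2 change was 0.56 ± 0.13 (SE, edgeR adjusted p = 0.00791). Among the 43 other types tested it passed in 2 upward and 1 downward, with a median change of 0.05.

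Ptgds, which encodes prostaglandin D2 synthase, stood at 1232, 688, 844, 65.7 and 515 CPM in the centre and at 1062, 826, 2152, 1466 and 1777 in the periphery. Retina 1 went the other way and retina 4 rested on a very low central value, and the log2 change was 0.95 ± 0.26 (SE, edgeR adjusted p = 0.0290). With the split at 0.6 the change was 0.39 (edgeR adjusted p = 0.398), and without retina 3 it was 0.91 (adjusted p = 0.114). The central value of the whole type rests on 62 puncta. Gngt1, a rod transducin gene, was higher in the periphery in 5 of 5 retinas, by 0.66 ± 0.18 (edgeR adjusted p = 0.0294). Gngt1 passed upward in 12 of the 43 other types as well, with a median of 0.34, and the rod gene Gnat1 had a change of 0.70 ± 0.29 in F-midi ON cells (edgeR adjusted p = 0.191). The part of rod transcripts in the Gngt1 value was not tested.

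Nefh, which encodes the heavy neurofilament chain of large axons, fell by 0.22 ± 0.06 in the periphery (SE, edgeR adjusted p = 0.0404). It stood at 21292, 17136, 19876, 18326 and 18653 CPM in the centre and at 18359, 16283, 15694, 14932 and 17425 in the periphery, lower in 5 of 5 retinas with overlapping ranges. Over 12 alternative settings the call was lost in 11 for Nefh, 7 for Ptgds, 6 for Gngt1 and 4 for Spon1, and 0 genes passed without retina 4, without retina 5, without the retina block or in DESeq2. Nefh was lost with any 1 retina left out (edgeR adjusted p from 0.0725 to 0.369). The 4 genes kept their direction in all 12 settings.

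Whether F-midi ON cells differ from the other types in these radial changes was tested in limma on 1 value per retina. Of 300 genes 0 passed (0%), 11 had an unadjusted p under 0.05, and the smallest adjusted p was 0.792. The excess over the other types was 0.51 ± 0.21 (SE) for Spon1, 1.13 ± 0.46 for Ptgds, 0.35 ± 0.15 for Gngt1 and -0.12 ± 0.09 for Nefh. The radial gene changes were therefore not shown to be particular to F-midi ON cells.

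**Figure D5:**
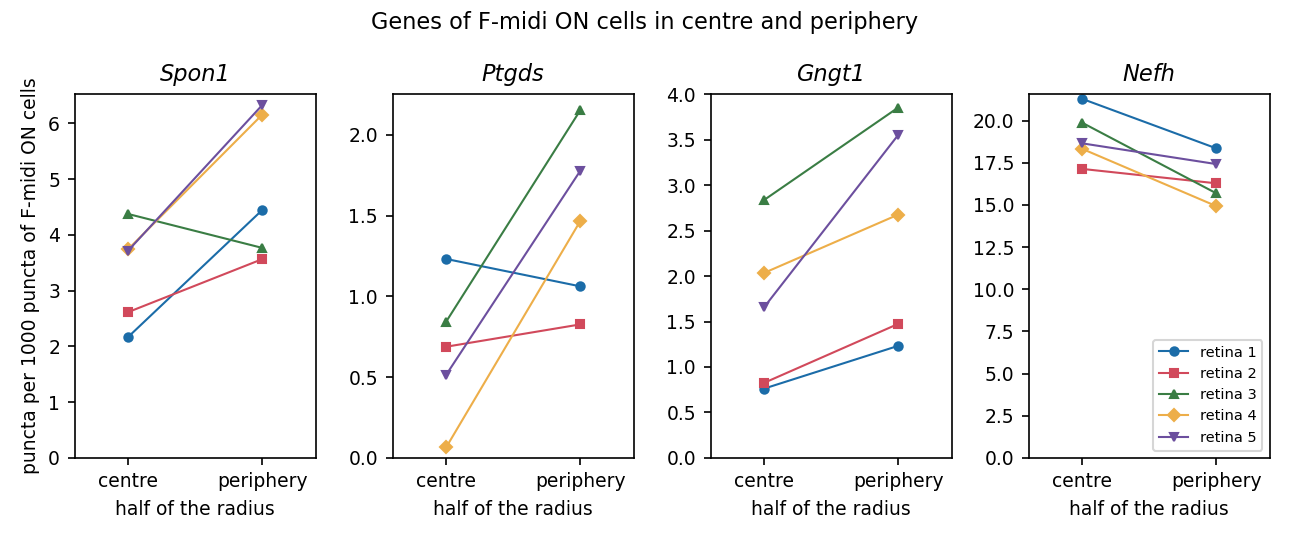
Puncta of Spon1, Ptgds, Gngt1 and Nefh per 1000 puncta of F-midi ON cells (y axis, each panel from 0) in centre and periphery (x axis), with 1 line per retina. Gngt1 climbs and Nefh drops in all 5 retinas, while retina 3 for Spon1 and retina 1 for Ptgds run against the rest.

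On the Y axis 0 of 248 genes passed in edgeR within F-midi ON cells (0%), with 25 under an unadjusted p of 0.05 and a background of 0.00834% over all pairs. Gal was lowest in p, at an adjusted p of 0.147 in edgeR. It stood at 2661, 1523, 672, 1112 and 725 CPM below Y = 0 and at 1207, 811, 654, 458 and 276 above it, lower above 0 in 5 of 5 retinas but nearly equal in retina 3, and the log2 change was -1.04 ± 0.20 (SE). On the X axis 0 of 249 genes passed in edgeR (0%), with 13 under an unadjusted p of 0.05 and 0.221% over all pairs. Volume did not differ detectably along the radius, with a log2 ratio of 0.09 ± 0.14 (SD), higher in 3 of 5 retinas (exact sign-flip permutation, p = 0.25).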

How the data were processed

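The authors' deposited table gives, per the file headers, puncta counts per cell for 300 genes, with retina, slide, section, position, volume, shape and type. The counts were used as deposited. Segmentation, cell filters and type calling are not given in the sources used here. No label ties a slide to a deposited sample, so the retina named in the table (n = 5) was the replicate. Some retinas share a slide, and sections lie within retinas.

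Puncta were summed per retina, type and side. Sides were split at a scaled radius of 0.5 or at 0 on X and Y. Gene changes within types used edgeR 4.0.16 (quasi-likelihood, retina as block, filterByExpr, TMM, at least 20 cells per sum) in R 4.3.3. P-values were adjusted by Benjamini-Hochberg over all pairs of type and gene, with a threshold of 0.05. Shares used edgeR on cell counts over 45 types, without TMM. Spacing used limma 3.58.1 on 1 log2 ratio per retina, with 0.5 added to each neighbour count. Other tests were exact two-sided sign-flip permutations over retinas. Levels between types were log2(CPM + 10). DESeq2 1.42.0 was an alternative, and the fits were tested on simulated data. Python 3.11.15 with numpy 2.4.6, pandas 2.3.3, scipy 1.17.1 and matplotlib 3.10.9 did the rest.

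The cells, gene lists and tests were chosen with earlier results of these data known. Named genes were up to 12 per direction with the largest mean difference, of 1 sign in all 5 retinas and at least 100 puncta (lower genes: over all RGCs), or the largest changes past the threshold along an axis, with members of the lists that passed or were past 1. Some genes that met the rule are not reported here.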

Additional observations from a re-analysis of the deposited data

Results flagged for a closer look

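Of 66 sets of 5 retina values, 1 had a retina far from the others, and chance flags about 1 in 20 groups. In retina 5, Ramp3, which encodes a receptor activity modifying protein, differed from the other types by -0.50, while the other retinas lay between -1.57 and -1.91.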

How the results depend on the processing

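No log2 ratio turned its direction under the settings tried, but the balance of genes higher and lower than the other types did. The peripheral excess in share was 0.42 without the replicate block (adjusted p = 0.0788, edgeR) and 0.35 to 0.53 with 1 retina left out. The 4 genes called between periphery and centre became 0 without the replicate block, 0 in DESeq2 and 0 to 6 with 1 retina left out, and 2 to 3 of the 4 were also called with library size alone, without the filter or with the split at 0.6. Along Y the count of 0 became 1 when adjusted over the type alone (Gal, adjusted p = 0.0440, edgeR), 2 without the filter, 9 with at least 50 cells per sum, which kept 3 retinas, and 0 to 7 with 1 retina left out. Along X it was 0 to 1 with 1 retina left out. Against all other RGCs pooled, 49 genes were past 1 (8 higher and 41 lower, where the main comparison had 16 and 7), of which 15 were among the 23 of the main comparison. Spacing within the regions marked in the table, an alternative chosen after seeing the data, gave -2.69 (adjusted p = 0.0471, limma). The cause of these shifts was not tested. At about 300 puncta per cell over 300 genes, most genes are at 0 or 1 in a cell, so cells were summed.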

Other observations

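The peptide genes Sst and Npy, which amacrine cells use, each ranked 3rd of the 45 types in F-midi ON cells at low counts. The other members of their lists did not share this as a group, since 0 of 14 amacrine genes were past 1 in all 5 retinas and the 13 without Pax6 ranked 21st in sum. Sst rested on 36 puncta and was at 0.0404, 0.0236, 0.162, 0.00461 and 0.0370 puncta per cell in retinas 1 to 5, above the mean of the other types in 4 of 5. Npy rested on 73 puncta and differed from the other types by 0.54 ± 0.28 (SD, n = 5), higher in 5 of 5 retinas. These genes were named after their values were seen.

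Median puncta per F-midi ON cell were higher above X = 0 in 5 of 5 retinas, at 328 ± 21 against 298 ± 17 (exact sign-flip permutation, p = 0.062, the smallest possible). The log2 ratio of 0.14 compares with a median of 0.04 and a highest value of 0.23 over the 44 other types.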
